A study of Mus musculus with 4 samples.

Results

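The genes described here were 9 transcription factors and cofactors of the muscle program, Mef2a, Mef2c, Mef2d, Six4, Six5, Eya1, Eya2, Eya3 and Eya4. They were taken by gene name from a list of these factors, which was drawn up with earlier results of these data known although its rule uses names only, and made up 9 of the 55573 genes in the table. Ribosome-protected RNA fragments had been sequenced from primary myoblasts, which are cultured precursors of muscle fibres, of 3-week-old mice on day 2 of proliferation in medium with FGF. There were 2 libraries from wild-type (WT) cells and 2 given the label eIF5A knockout (eIF5A-KO). eIF5A is a translation factor that carries the modified amino acid hypusine. The knockout was made by tamoxifen in mice with floxed eIF5A and the Pax7-CreERT2 driver, so that recombination is limited to cells that express Pax7 at the time of tamoxifen and is passed on to their descendants, and cells of other origin in the culture keep the gene. The controls were WT littermates. Which of the Cre and floxed alleles they carried was not given for these samples. For the same knockout line, the paper elsewhere names both Pax7-CreERT2 mice and floxed mice without Cre as controls. It calls the ribosome profiling duplicate experiments, but whether the libraries of a group came from separate animals or cultures was not given. The p-values therefore measure only the spread between these libraries. The comparison asks which mRNAs carry less or more ribosome-protected signal when eIF5A is deleted.

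Mef2 proteins bind AT-rich sites in muscle genes as dimers and act together with the MyoD family. Six4 and Six5 belong to the sine oculis homeobox factors, which bind control regions of myogenic regulators, and Eya proteins are cofactors with no DNA-binding domain that dock on these homeobox factors and activate transcription. The Mef2 factors are held back in myoblasts by class IIa histone deacetylases and are best known for driving differentiation, whereas the homeobox factors and Eya act from the specification of muscle precursors onwards. eIF5A is best known for helping ribosomes through difficult peptide bonds, of which runs of proline are the standard example.

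The coding sequences of the members are therefore shown first at their proline runs. The longest coding sequence of each gene in GENCODE M21 (build GRCm38) was searched for runs of 3 or more proline codons. Of the 9 members, 6 held such a run (66.7%), and 4 of the 7 tested members did (57.1%), against 25.7% of the 9869 tested coding genes. Mef2d and Mef2a each held a run of 4 prolines, and runs of 4 or more were present in 8.87% of the tested coding genes. Mef2a held 3 runs, Mef2d and Mef2c 2 each, and Six5, Eya1 and Eya4 1 each, whereas the longest run in Six4, Eya2 and Eya3 was 2 prolines. The sequences below are those of the runs of 4 and of the corresponding short runs in Mef2c, Eya1 and Eya4, written 5′ to 3′ on the coding strand with the proline codons in capitals and 6 bases of flank on each side. Residues are counted from the start codon. Each run lies in coding exon sequence and is unbroken in the genome.
Mef2d, residues 252 to 255, chr3:88161274-88161297, plus strand: aagtctCCGCCCCCACCCacccac
Mef2a, residues 254 to 257, chr7:67251738-67251761, minus strand: aagtctCCCCCGCCACCAggtggt
Mef2c, residues 259 to 261, chr13:83652891-83652911, plus strand: aaatctCCTCCCCCTatgaat
Mef2d, residues 446 to 449, chr3:88168141-88168164, plus strand: cctgcaCCTCCTCCACCAgctgtg
Eya1, residues 314 to 316, chr1:14231422-14231442, minus strand: ccctccCCTCCCCCGgattct
Eya4, residues 362 to 364, chr10:23139970-23139990, minus strand: ccctccCCACCTCCGgacagt
The run at residue 252 of Mef2d and the run at residue 254 of Mef2a shared the same 6 bases upstream and differed at 9 of 24 bases in all. The runs of Eya1 and Eya4 also shared their upstream flank, and they differed at 5 of 21 bases.

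The libraries held between 642429 and 704006 whole reads recovered from the deposited RPKM values (reads scaled by exon length in kilobases and by the library size the authors used), and protein-coding genes took 41.5% and 33.9% of them in WT libraries 1 and 2 against 65.4% and 59.2% in eIF5A-KO libraries 1 and 2. Eif5a itself was read at 34.9 and 65.2 RPKM in WT libraries and at 60.3 and 59.4 RPKM in eIF5A-KO libraries (log2 fold change 0.32, SE 0.48; limma adjusted p = 0.839). The targeted gene was thus not lower under the KO label, and the group is called the libraries labelled KO below. Markers of differentiating muscle stood apart in WT library 1, with a summed level over the 14 listed genes of 314.7 RPKM against 63.0 RPKM in WT library 2 and 43.6 and 40.9 RPKM in eIF5A-KO libraries 1 and 2. The fusion genes Mymk and Mymx of that list were at 0 in every library except eIF5A-KO library 1, which held 2 Mymk reads and 1 Mymx read. The 8 muscle lineage markers, all tested, summed to 253 and 207 RPKM in WT and to 118 and 132 RPKM under the KO label. Myod1, whose translation the paper assigns to eIF5A, was the largest term (139.9 and 117.5 against 48.6 and 79.8 RPKM). Of the 8 genes, 7 had a fold change below 0, with overlapping groups for Itga7 and Cdh15. Vcam1 was higher under the KO label without overlap (5.42 and 11.73 against 20.01 and 12.98 RPKM). The 10 fibroblast markers summed to 611 and 404 RPKM in WT against 989 and 475 RPKM, with Tcf21 at 0 in every library. Endothelial markers ranged from 143 to 161 RPKM over the 4 libraries at the authors' scaling. The immune markers summed to 28.4 and 38.5 RPKM in WT and to 25.0 and 25.9 RPKM under the KO label, with Itgam at 0 throughout, and the smooth muscle and pericyte markers to 167 and 128 RPKM against 104 and 112 RPKM. At the authors' scaling both sums were lower under the KO label without overlap, although the immune genes Adgre1 (0.512 and 1.97 against 4.43 and 4.21 RPKM) and Csf1r (0.287 and 0 against 1.15 and 1.29 RPKM) were higher. With every library brought to an equal total of reads, the immune sums became 25.9 and 27.6 against 31.6 and 31.5, higher without overlap, as were the endothelial sums (129.7 and 115 against 202.9 and 190.3) and the fibroblast sums (556 and 290.1 against 1247 and 578). The muscle lineage, differentiating muscle and smooth muscle sums then overlapped. The Schwann and neural markers lay between 17.3 and 37.4 RPKM, with overlap. Fewer cells of a type and less RNA per cell cannot be told apart in such bulk libraries, and the part of the cell mixture in the member values was not tested.

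The 9 members together received 194 and 124 reads in WT libraries 1 and 2, and 184 and 200 reads in eIF5A-KO libraries 1 and 2. As a share of the reads on protein-coding genes, this was 0.0721% (95% Wilson interval 0.0626 to 0.0830) in WT library 1 and 0.0570% (0.0478 to 0.0679) in WT library 2. It was 0.0400% (0.0346 to 0.0462) in eIF5A-KO library 1 and 0.0519% (0.0452 to 0.0596) in eIF5A-KO library 2. The share was higher in both WT libraries than in both libraries labelled KO, with WT library 2 and eIF5A-KO library 2 close together and their intervals overlapping. All such intervals here describe the error of counting alone, because PCR can give many reads from the same molecule. The Mef2 genes supplied most of the reads, 134 and 90 in WT and 127 and 143 under the KO label, and Six4 with Six5 the fewest, 21 and 9 against 12 and 5.

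Mef2d (ENSMUSG00000001419, chr3:88142372-88172086, plus strand), the widely expressed member of its family, carried the strongest mean signal per kilobase of exons of the 9 genes in both groups. In eIF5A-KO library 1 Eya3 was above it, at 7.81 against 7.18 RPKM. Mef2d was read at 22.4 and 14.5 RPKM (81 and 41 reads) in WT libraries 1 and 2 and at 7.18 and 13.2 RPKM (39 and 64 reads) in eIF5A-KO libraries 1 and 2. Both values under the KO label lay below both WT values, with eIF5A-KO library 2 only just under WT library 2. The group means were 18.5 ± 5.59 RPKM in WT and 10.2 ± 4.28 RPKM under the KO label (SD, n = 2 each). The log2 fold change was −0.82 (SE 0.47, 95% interval −1.97 to 0.33; limma adjusted p = 0.697) computed from log2(RPKM + 1), where the added 1 shrinks the fold change of genes with few reads. In pooled reads at the authors' library scaling, the ratio of KO-labelled to WT signal was 0.529, with a counting interval of 0.403 to 0.693 that leaves out the spread between libraries. With every library brought to an equal total of reads the groups overlapped and the fold change was −0.26, which is −0.72 from the median of all tested genes at that scaling. At the authors' scaling the fold change ranged from −1.22 without eIF5A-KO library 2 to −0.42 without eIF5A-KO library 1. Without WT library 1, the library rich in differentiation markers, it was −0.53.

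Mef2a (ENSMUSG00000030557, chr7:67231163-67372858, minus strand), which shares its DNA-binding and dimerization domains with the other Mef2 factors, gave 4.86 and 6.22 RPKM (43 reads each) in WT. Under the KO label it gave 4.73 and 5.14 RPKM (63 and 61 reads). The values of the groups interleaved, and the means of 5.54 ± 0.961 and 4.94 ± 0.292 RPKM (SD, n = 2 each) differed by less than the WT spread. The log2 fold change was −0.13 (SE 0.36, interval −1.02 to 0.76; limma adjusted p = 0.917), and it was 0.02 without WT library 2 and 0.39 with every library brought to an equal total of reads, a scaling that moved the median of all tested genes from 0.000259 to 0.47. Measured from that median, Mef2a stood at −0.08 under the same scaling.

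Mef2c (ENSMUSG00000005583, chr13:83504034-83667080, plus strand), a factor required for heart and skeletal muscle differentiation, had the weakest signal of the 3 listed Mef2 genes. It was read at 1.06 and 0.810 RPKM (10 and 6 reads) in WT and at 1.75 and 1.42 RPKM (25 and 18 reads) under the KO label. Both libraries labelled KO lay above both WT libraries, at the authors' scaling and with equal totals over protein-coding genes. The log2 fold change was 0.42 (SE 0.58, interval −1.02 to 1.86; limma adjusted p = 0.823), and the pooled read ratio was 1.68 with a counting interval of 0.929 to 3.20. The fold change was 0.71 with 0.1 added in place of 1 and 0.69 by limma-voom. With equal read totals it was 0.75, or 0.28 from the median of all genes. An exact two-sided permutation test of the 2 against 2 RPKM values gave p = 0.333 for Mef2c, as for Mef2d, which is the smallest value this design can give. A difference was not detectable for Mef2c at this depth.

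**Figure D1:**
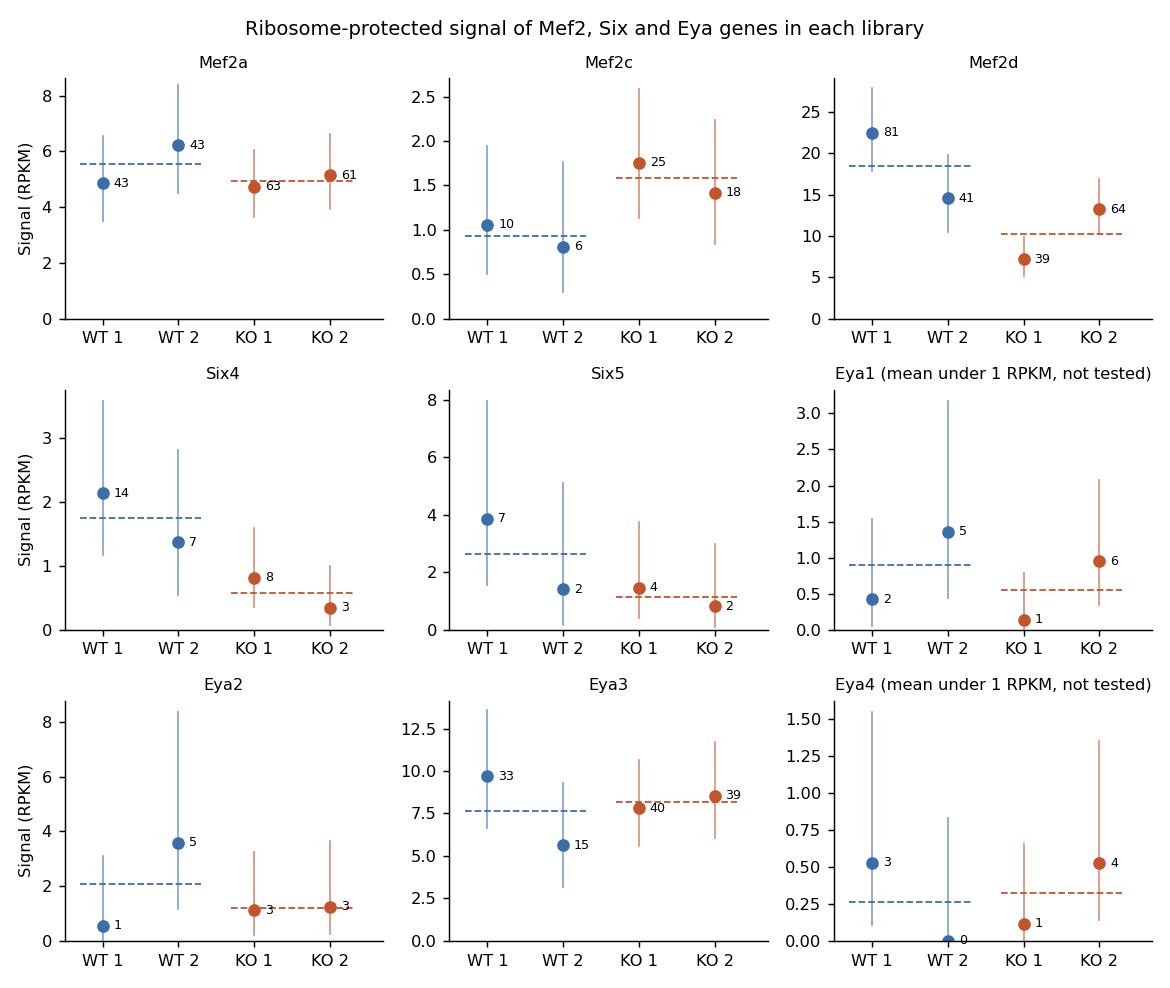
Ribosome-protected signal in RPKM (y axis, each panel with its own scale from 0) of the 9 genes in WT libraries 1 and 2 (blue) and in libraries 1 and 2 labelled KO (red). Points carry the number of reads, vertical lines are 95% Poisson intervals for counting error only, and dashed lines are group means; Mef2d and Six4 lie lower and Mef2c higher under the KO label without overlap, and the remaining genes overlap.

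The makeup of the Mef2 family was compared within each library, where the library size cancels. These ratios were computed after the member values had been seen. Mef2c made up 3.72% and 3.76% of the summed RPKM of Mef2a, Mef2c and Mef2d in WT and 12.8% and 7.16% under the KO label. Mef2d made up 79.1% and 67.4% in WT and 52.6% and 66.9% under the KO label. The Mef2c share was thus higher and the Mef2d share lower in both libraries labelled KO, the latter by a narrow margin between the replicate 2 libraries (exact permutation p = 0.333 for each share, the smallest possible). Counted against Mef2a alone, Mef2d gave 1.88 and 0.953 reads per Mef2a read in WT and 0.619 and 1.05 under the KO label, values that overlapped (exact permutation p = 0.667). Mef2c gave 0.233 and 0.140 reads per Mef2a read in WT and 0.397 and 0.295 under the KO label, which did not overlap. Per kilobase of coding sequence, the Mef2c share was 7.81% and 6.94% in WT and 20.3% and 13.1% under the KO label, and the Mef2d share 59.6% and 44.7% against 29.9% and 43.8%. The groups were in the same order on both length scales. For the Mef2c share this was fixed in advance and is no second support. Its reads per Mef2a read and per Mef2d read were both higher in both libraries labelled KO, whatever the lengths. With 6 to 25 Mef2c reads per library, these shares carry wide counting error.

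**Figure D2:**
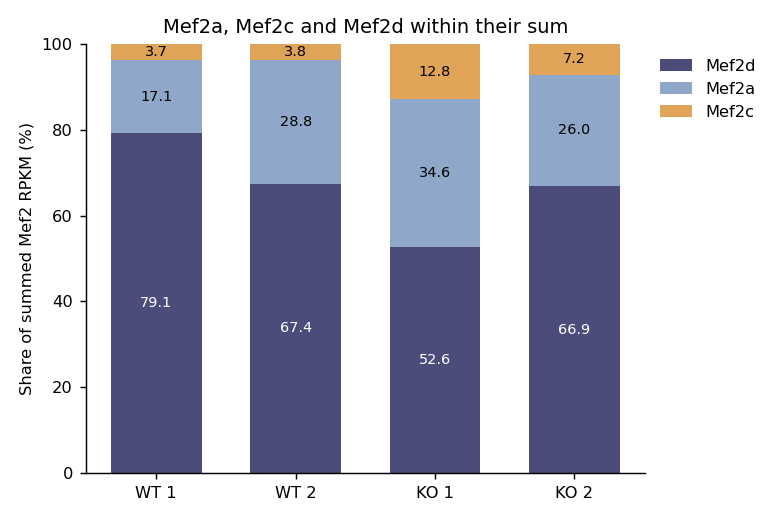
Share in percent (y axis) of Mef2d, Mef2a and Mef2c in their summed RPKM in each of the 4 libraries (x axis), as stacked bars with the share printed in each segment. The Mef2c segment is 3.7% and 3.8% in WT libraries and 12.8% and 7.2% under the KO label.

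Six4 (ENSMUSG00000034460, chr12:73099609-73113456, minus strand), which acts in activating myogenic genes, was the homeobox gene of the list whose groups did not overlap. It was read at 2.14 and 1.37 RPKM (14 and 7 reads) in WT and at 0.813 and 0.342 RPKM (8 and 3 reads) under the KO label. Both values under the KO label were below both WT values in RPKM, whereas the raw reads of the groups overlapped. The means were 1.75 ± 0.545 RPKM in WT and 0.577 ± 0.333 RPKM under the KO label (SD, n = 2 each), with a log2 fold change of −0.81 (SE 0.65, interval −2.41 to 0.80; limma adjusted p = 0.721). The pooled read ratio was 0.328 with a counting interval of 0.143 to 0.712. The eIF5A-KO library 2 value rested on 3 reads, the floor used here, and the fold change was −0.59 without that library. With equal read totals the groups of Six4 overlapped and the fold change was −0.51, or −0.98 from the median of all genes.

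Six5 (ENSMUSG00000040841, chr7:19094594-19098549, plus strand), which lies beside the myotonic dystrophy kinase gene and binds the same class of sites as Six4, was read at 3.86 and 1.41 RPKM (7 and 2 reads) in WT and at 1.47 and 0.823 RPKM (4 and 2 reads) under the KO label. WT library 1 alone was high, and the other 3 libraries interleaved. The log2 fold change of −0.69 (SE 0.58; limma adjusted p = 0.725) was −0.19 without WT library 1. With 15 reads in all, Six5 can show no more than a large difference.

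The Eya genes showed no common direction. Eya3 (ENSMUSG00000028886, chr4:132638987-132724765, plus strand), a widely expressed member, was read at 9.69 and 5.64 RPKM (33 and 15 reads) in WT and at 7.81 and 8.55 RPKM (40 and 39 reads) under the KO label. The libraries labelled KO lay between the 2 WT libraries, and the means of 7.67 ± 2.87 and 8.18 ± 0.524 RPKM (SD, n = 2 each) differed by less than the WT spread. The log2 fold change was 0.12 (SE 0.41, interval −0.88 to 1.13; limma adjusted p = 0.934), and it turned to −0.22 without WT library 2 and to −0.07 after the trend of the values on coding GC had been removed. It was 0.66 with equal read totals, or 0.19 from the median of all genes. The interval leaves room for a change of either sign in Eya3.

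Eya2 (ENSMUSG00000017897, chr2:165595032-165771727, plus strand), a cofactor of the homeobox factors in muscle, gave 0.560 and 3.58 RPKM (1 and 5 reads) in WT and 1.12 and 1.25 RPKM (3 reads each) under the KO label. WT library 2 was the highest and WT library 1 the lowest, so that the WT values enclosed the others. Its log2 fold change was −0.29 (SE 0.70, interval −2.02 to 1.44; limma adjusted p = 0.906). Without WT library 1 it was −1.07 at an unadjusted limma p of 0.0341 and a limma adjusted p of 0.504, within a range of 0.357 to 0.985 over the libraries left out in turn. WT was then 1 library with 5 Eya2 reads, which has no spread of its own and is assumed to vary like the libraries labelled KO. Without WT library 2 the fold change was 0.49. With equal read totals it was 0.0865, or −0.38 from the median of all genes.

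Eya1 and Eya4 had a mean under 1 RPKM and were not tested. Eya1 (ENSMUSG00000025932, chr1:14168954-14310235, minus strand), whose loss disturbs muscle and ear development, was read at 0.425 and 1.36 RPKM (2 and 5 reads) in WT and at 0.141 and 0.951 RPKM (1 and 6 reads) under the KO label. Its replicate 2 libraries were the higher ones in both groups, and the groups overlapped. Eya4 (ENSMUSG00000010461, chr10:23102963-23350786, minus strand), a cofactor best known from hearing loss, was read at 0.528 and 0 RPKM (3 and 0 reads) in WT and at 0.117 and 0.526 RPKM (1 and 4 reads) under the KO label, and the 0 reads of WT library 2 allow a level of up to 0.676 RPKM at the floor of 3 reads, or 0.831 RPKM at the upper 95% Poisson limit drawn in the plot by library.

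Across the members, 7 of 9 passed the minimum mean of 1 RPKM, 5 of them with a fold change below 0 and 2 above 0, and their median log2 fold change was −0.29 against 0.000259 over all 11363 tested genes. No member was called at a limma adjusted p under 0.05, where 0.0968% of all tested genes were called lower and 0.0088% higher. None had an unadjusted limma p under 0.05 either, against 4.46% lower and 2.86% higher among all tested genes, and the smallest value was 0.130 for Mef2d. Among the 7, the groups did not overlap for 2 genes that were lower under the KO label (Mef2d and Six4) and 1 that was higher (Mef2c). Of all tested genes, 20.3% did not overlap and were lower, and 20.1% were higher, so these counts are near the background. Six4 passed the minimum mean of 1 RPKM only through its WT values (mean 1.75 against 0.577 RPKM). Mef2c passed it only through the values under the KO label (0.933 against 1.59 RPKM). Their separation is therefore not independent of that filter. The separation also depended on the scaling. With equal read totals 0 members were lower and 3 (Mef2a, Mef2c and Eya3) higher without overlap, against 7.87% lower and 41.4% higher among all tested genes. With equal totals over protein-coding genes 4 were lower and 1 (Mef2c) higher, against 23.4% lower and 16.5% higher. A limma-voom fit to the recovered reads tested 5 of the members and called 0 at an adjusted p under 0.05, where it called 0.425% of its genes lower and 0% higher, and 0 at an unadjusted p under 0.05, against 6.66% lower and 3.48% higher. In that fit Mef2d had a log2 fold change of −0.90 and Six4 of −1.60, with unadjusted limma-voom p-values of 0.0588 and 0.0583 and a limma-voom adjusted p of 0.507 for each. Setting WT library 1 aside left 0 members at an adjusted p under 0.05 by limma and 1, Eya2, at an unadjusted p in the lower direction, with a WT group of 1 library that has no spread of its own. Of all tested genes, 5.7% were lower and 3.93% higher at an unadjusted p in that comparison.

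**Figure D3:**
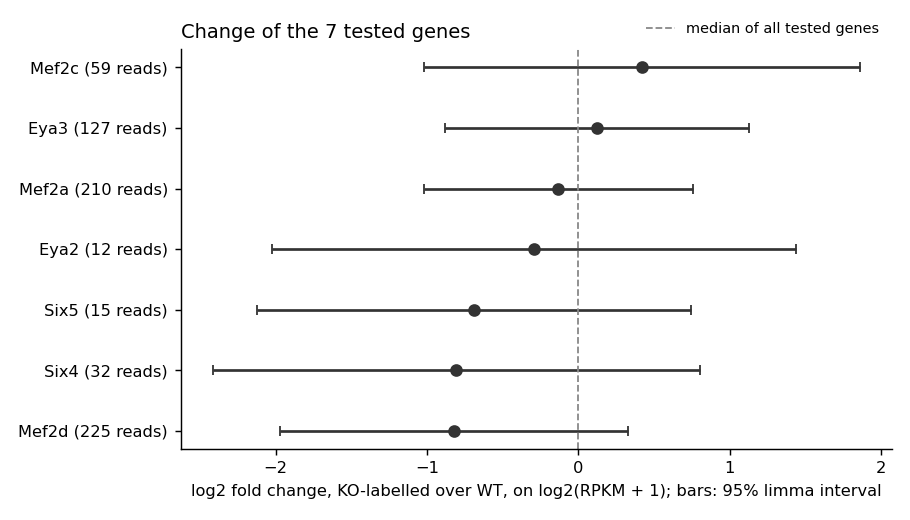
Log2 fold change of the libraries labelled KO over WT on the log2(RPKM + 1) scale (x axis) for the 7 tested genes (y axis, with their reads over the 4 libraries). Points are limma estimates, bars their 95% intervals, and the dashed line is the median of all tested genes; every interval spans 0, and estimates run from −0.82 for Mef2d to 0.42 for Mef2c.

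The order of the levels depended on the length by which reads were divided. Per kilobase of exons, the WT order was Mef2d, Eya3, Mef2a, Six5, Eya2, Six4, Mef2c, Eya1 and Eya4. Among neighbours in that order, the WT libraries of Mef2d and Eya3, of Mef2a and Six5, and of Six4 and Mef2c did not overlap, and all other neighbours did. Under the KO label Mef2c stood at place 4, above Eya2, Six5 and Six4, and the libraries of Mef2d and Eya3 overlapped there.

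Ribosome-protected reads lie mainly on coding sequence, and the exon lengths behind the RPKM values exceeded the longest coding sequence by 9.83 times for Mef2a and 10.8 times for Mef2c, against 3.88 times for Mef2d and 1.39 times for Six5. Per kilobase of coding sequence, Mef2a reached 54.4 ± 9.44 (reads scaled by coding length in kilobases and by the authors' library size) in WT, beside 71.8 ± 21.7 for Mef2d and 27.4 ± 10.3 for Eya3 (SD, n = 2 each). Mef2d and Mef2a overlapped in WT on this scale. Under the KO label Mef2a stood first at 48.5 ± 2.87, with Mef2d at 39.6 ± 16.6 and Eya3 at 29.3 ± 1.87 (SD, n = 2 each). The libraries of Mef2d there overlapped both those of Mef2a and those of Eya3. Mef2c reached 10.1 ± 1.88 in WT and 17.2 ± 2.57 under the KO label, and the next gene, Six4, 8.19 ± 2.54 in WT and 2.70 ± 1.55 under the KO label (SD, n = 2 each). Part of the exons of Mef2a is shared with Lysmd4 on the opposite strand (302 of 14681 bases), and part of those of Mef2d with the antisense gene 1700113A16Rik (531 of 5985 bases). Lysmd4 held at most 3 reads in a library and the antisense gene 0, and whether the counting used strand was not stated.

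**Figure D4:**
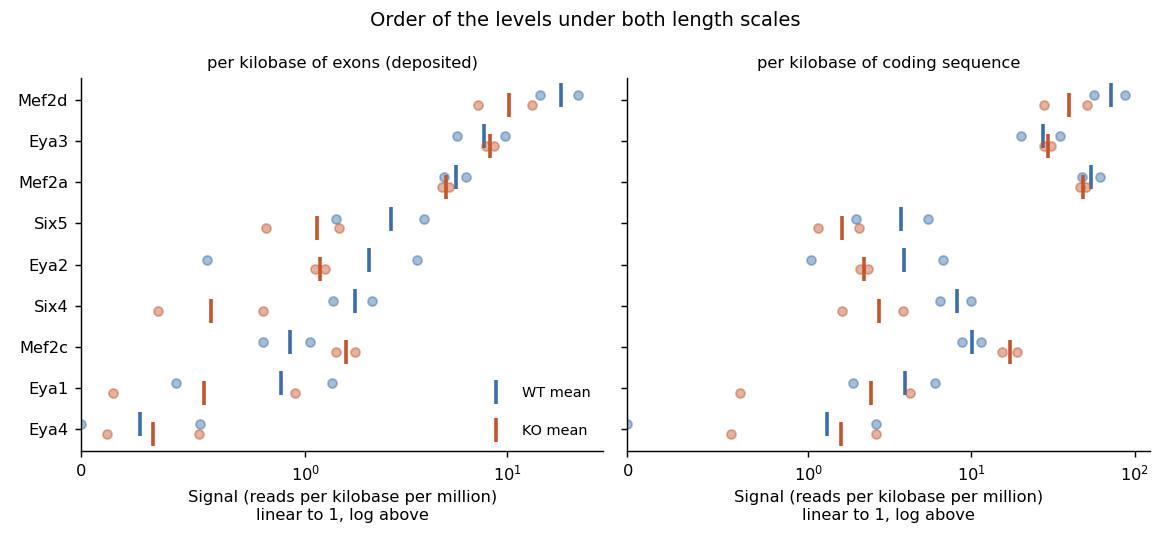
Signal of the 9 genes (y axis) as reads scaled by length and library size, per kilobase of exons at left and per kilobase of the longest coding sequence at right (x axes linear to 1 and logarithmic above). Circles are libraries and vertical marks group means, WT in blue and libraries labelled KO in red; Mef2a stands below Mef2d and Eya3 per kilobase of exons in both groups and, per kilobase of coding sequence, next to Mef2d in WT and above it under the KO label.

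Base composition and proline runs were set beside the fold changes. The coding GC of the members ran from 48.2% for Eya4 and 48.5% for Eya3, over 50.6% for Mef2c and 50.8% for Mef2a, to 56.0% for Six4, 59.9% for Mef2d and 65.6% for Six5. Over all tested coding genes the median log2 fold change went from 0.37 in the 987 genes lowest in GC to −0.48 in the 987 highest. Genes within 1 percentage point of the GC of Mef2d had a median of −0.28, those near Six5 of −0.53, those near Six4 of −0.08 and those near Mef2a, Mef2c and Eya3 of 0.22 each. With the GC trend removed, the log2 fold change was −0.51 for Mef2d, −0.69 for Six4, −0.18 for Six5, −0.27 for Mef2a and 0.28 for Mef2c. GC thus moved with the fold changes of all genes, and Mef2d, Six4 and Mef2a lay below the median of their GC neighbours, as did Six5, Eya2 and Eya3 by smaller amounts. For the proline runs, the 4 tested members that hold a run had a median log2 fold change of −0.41 and the 3 without of −0.29. All tested coding genes with a run had a median of −0.13 and those without of 0.12. With 7 members this is a description only, and the part of GC in the difference between genes with and without runs was not tested.

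**Figure D5:**
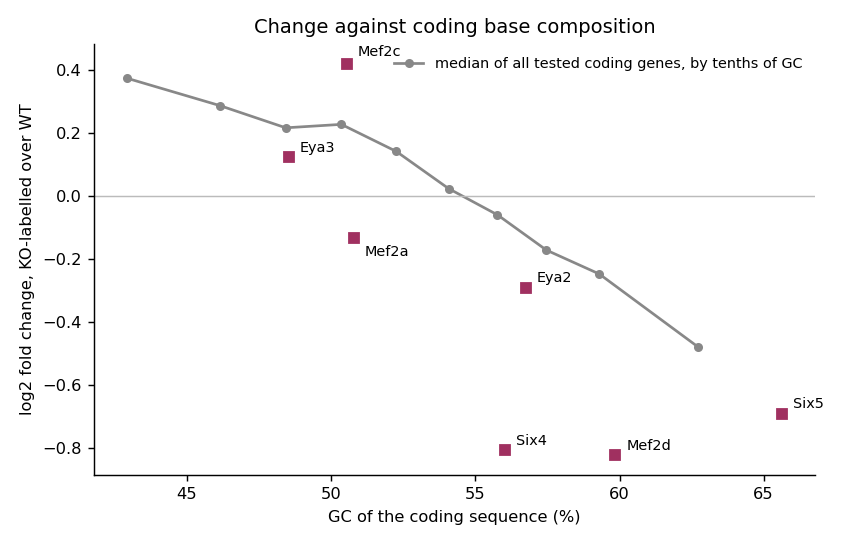
Log2 fold change of the libraries labelled KO over WT (y axis) against the GC of the longest coding sequence in percent (x axis) for the 7 tested genes (squares). The line joins the medians of all tested coding genes in 10 bins of GC, which go from 0.37 to −0.48; Mef2c lies above the line, Six5 beyond its last point and lower, and the others below it.

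Among other genes of the same families, Six2 had a log2 fold change of −0.01 (SE 0.67; limma adjusted p = 0.997). Mef2b held 1 read in WT library 1 and none elsewhere, and Six3 and Six6 were listed at 0 in all 4 libraries.

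The partners and regulators of these factors were counted by lists. No gene of the lists of partners, regulators and targets was called at an adjusted p under 0.05 by limma or by limma-voom, so the counts here are of signs or of unadjusted limma p-values. Sign counts with equal read totals are made against the median of all genes at that scaling, 0.47. The limma p-values there are against 0, where 14.8% of all tested genes were higher and 1.5% lower at an unadjusted p under 0.05. At the authors' scaling 4.46% were lower and 2.86% higher at such a limma p, and 6.66% and 3.48% by limma-voom. Of the 11363 tested genes, 5680 were below 0 at the authors' scaling. A listed gene could pass the minimum mean of 1 RPKM through 1 group alone. Counts without WT library 1 rest on a single WT library. Of the class IIa histone deacetylases and other Mef2 repressors, 5 of 6 tested were below 0 with a median of −0.72, and of the coactivators of Mef2, 6 of 7 were below 0 with a median of −0.55. With equal read totals 5 and 6 were below the median of all genes, and without WT library 1 5 and 4 were below 0, with medians of −0.39 and −0.25. None of either list had an unadjusted limma p under 0.05 at the authors' scaling, and 2 and 0 had by limma-voom, in the lower direction. With equal read totals 1 and 0 had, namely Ywhae in the higher direction, which was the tested gene of its list above 0 at the authors' scaling too (log2 fold change 0.57). The kinases and phosphatases that act on Mef2 had 7 of 11 above 0 with a median of 0.25, and with equal read totals 4 of 11 were below the median of all genes. An unadjusted limma p under 0.05 in the higher direction was reached by 4 of them with equal read totals, where such calls were common among all genes, and by 0 without WT library 1. At the authors' scaling the 2 genes at such a p were Mapk11, a p38 kinase, at 1.15 and 0.735 RPKM in WT against 3.06 and 6.43 RPKM under the KO label (2 and 1 against 8 and 15 reads), and Ppp3cb, a calcineurin catalytic subunit, at 1.88 and 1.93 against 5.63 and 4.36 RPKM (10 and 8 against 45 and 31 reads). Their log2 fold changes were 1.51 (SE 0.50; limma adjusted p = 0.665) and 1.04 (SE 0.38; limma adjusted p = 0.672).

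Of the Vgll and Tead muscle cofactors, 7 of 7 tested were below 0 with a median of −0.74. With equal read totals 7 of 7 were below the median of all genes. Without WT library 1 5 of 7 were below 0, with a median of −0.41. Tead2, a DNA-binding partner of the Vgll proteins, was read at 4.85 and 4.88 RPKM in WT against 1.38 and 1.81 RPKM under the KO label (log2 fold change −1.18, SE 0.39; limma adjusted p = 0.665). Of the Dach and Ski corepressors, 1 of 3 tested was below 0, namely Ski at 36.7 and 24.4 against 11.1 and 14.5 RPKM (log2 fold change −1.18, SE 0.42; limma adjusted p = 0.672). The 9 tested targets of these homeobox factors and Eya were 5 below and 4 above 0 with a median of −0.04, and 3 were at an unadjusted p under 0.05 in the lower direction and 1 in the higher. These counts were 1 and 2 with equal read totals, 1 and 0 without WT library 1, and 0 and 1 by limma-voom. Among the genes so counted at the authors' scaling, the myogenic factor Myf5 held 8 and 4 reads in WT against 2 and 0 under the KO label, and Lbx1, a homeobox factor of migrating muscle precursors, 8 and 2 against 0 and 0. The cyclin Ccna2 held 0 and 3 reads against 14 and 15.

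Of the 18 listed muscle targets of Mef2, 11 were tested. Ckm and Myl1 passed the minimum mean of 1 RPKM only through their WT values. Among the targets not tested, Ppargc1a, Mymk and Mymx had reads only under the KO label, and Myom1 and Smyd1 only in WT. Of the tested targets, 11 of 11 were below 0 with a median of −1.24. An unadjusted limma p under 0.05 was reached by 3 of them, against 4.46% lower among all tested genes. With equal read totals 10 of 11 were below the median of all genes and 0 had such a p. Without WT library 1 10 of 11 were below 0 with a median of −0.71, and 1 had such a p. The count below 0 was 8 of 11 with the coding GC trend removed, with a median of −0.97, and 9 of 11 with quantile normalization. The intermediate filament gene Des was read at 46.0 and 40.1 RPKM in WT against 13.8 and 21.4 RPKM under the KO label, with a log2 fold change of −1.27 (SE 0.43; limma adjusted p = 0.665). Actc1, the cardiac actin that embryonic muscle also makes, was read at 63.6 and 6.56 against 2.04 and 3.06 RPKM, and Myog, the differentiation factor, at 91.0 and 4.26 against 0.737 and 1.66 RPKM. For Actc1 and Myog, WT library 1 was far above WT library 2. Mef2d, Six4, Six5 and Eya3 also had their highest value in WT library 1, as did Eya4 at 3 reads (0.528 against 0.526 RPKM in eIF5A-KO library 2). Mef2a, Eya1 and Eya2 were highest in WT library 2 and Mef2c in eIF5A-KO library 1. The share of all genes that were highest in WT library 1 was not computed, and a link between these patterns was not tested. Several of the muscle targets of Mef2 are also in the marker lists for muscle lineage and differentiating muscle, so the lists are not independent of each other.

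The genes whose profile over the 4 libraries was most like that of the most-read member of each family were found by the Euclidean distance between centred log2(RPKM + 1) values among 3354 protein-coding genes with at least 100 reads. For Mef2d these were Stk11 (distance 0.0493), with 25.7 and 16.7 RPKM in WT and 7.94 and 14.9 RPKM under the KO label, and Mllt1 (distance 0.0726). For Six4 they were Tet3 (0.108) and Ppp1r2 (0.109), and for Eya3 they were Pds5b (0.0680) and Ubr1 (0.0766). The likeness rests on 4 libraries and on their shared depth and scaling.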

How the data were processed

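The authors removed low-quality, rRNA and tRNA reads, mapped with TopHat2 to the mouse genome (mm10 per the labels, Ensembl annotation) and counted genes with HTSeq. Tool versions and the rules for strand and shared reads were not given in the sources used here. Though titled Polysome-Seq, the samples were prepared by RNase I digestion and isolation of ribosome-protected fragments. The deposited RPKM values are scaled by exon length and by a library size that the authors chose and that differs from the read total. Each value times gene length was a whole multiple of a step for 100% of values (tolerance 0.01 reads), which gave the reads. Of the gene identifiers, 99.8% were found in GENCODE M21 (GRCm38). No RNA abundance was used, so translation efficiency was not computed.

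The test was limma 3.58.1 (R 4.3.3; trend=TRUE) on log2(RPKM + 1) for the 11363 genes averaging 1 RPKM or more, with Benjamini-Hochberg adjustment over all of them. limma-voom used genes with at least 20 reads. The script was tested on simulated data with genes of at least 100 reads and changes larger than those of the members. That test does not cover smaller changes or genes with fewer reads. The floor was 3 reads and intervals were 95%. The list of members, the context lists and the tests were chosen with earlier results of these data known, and the rule named all 9 members, family genes (1 of them is not reported here), up to 4 non-overlapping genes per list at an unadjusted p under 0.05, and the 2 nearest profiles. Python 3.11.15 with scipy 1.17.1 gave intervals and exact tests.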

Additional observations from a re-analysis of the deposited data

How the results depend on the processing

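The fold changes of Mef2c, Mef2d, Six4 and Six5 kept their sign under every alternative in which each was tested, and none of the 7 tested members reached an adjusted p under 0.05 in any, with adjusted p-values from 0.357 to 0.993. Scaling to the same sum of reads turned Mef2a to 0.39 and Eya2 to 0.0865, with the median of all genes at 0.47 (from it, −0.08 and −0.38), and removing the coding GC trend turned Eya3 to −0.0663. Leaving out a library at a time gave log2 fold changes of −0.28 to 0.0185 for Mef2a, 0.33 to 0.51 for Mef2c, −1.22 to −0.42 for Mef2d, −1.02 to −0.59 for Six4, −1.20 to −0.19 for Six5, −1.07 to 0.49 for Eya2 and −0.22 to 0.47 for Eya3. Members lower at an unadjusted p under 0.05 were 0 to 1. The median of the members was −0.13 with a minimum mean of 5 RPKM (3 members), 0.0865 with the same sum, −0.16 by limma-voom (5 members) and −0.18 without the GC trend. The replicate block left every member uncalled. The correlation of same-numbered deviations was 0.0575 over 2 pairs, which cannot show whether same-numbered libraries shared a culture or a preparation. At an adjusted p, 11 genes were lower and 1 was higher, which became 0 and 0 with the block, pseudocount 0.1, no minimum level, a minimum of 5 RPKM, the same sum, trend=FALSE, protein-coding genes only, the GC trend removed or any library left out, and 39 and 0 by limma-voom. The 507 genes lower at an unadjusted p became 327 with a minimum of 5 RPKM, 170 with the same sum, 307 without the GC trend and 225 to 791 with a library left out, and the 325 higher became 178, 1684 and, with a library left out, 205 to 809. The cause of these shifts was not tested. Depth limits Six5, Eya1, Eya2 and Eya4 most, with 8 to 15 reads each over 4 libraries.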
